A study of Homo sapiens with 8 samples.

Results

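AGGF1, ZBED3, PDE8B, WDR41, OTP, TBCA, AP3B1, SCAMP1 and LHFPL2 are neighbours on chromosome 5 and together span chr5:77030404-78648772, or 1.62 Mb of GRCh38. These 9 of 19122 autosomal protein-coding genes were chosen because PDE8B and WDR41 replicated earlier in CFAP20-KO than in WT cells. The differences between genotypes given for them below are therefore descriptions and carry no test. Human RPE-1 hTERT cells, a telomerase-immortalised retinal pigment epithelial line, were either WT or CFAP20-KO, and both genotypes shared each of 8 plates. All cells received the same single pulse of 15 minutes with 10 µM EdU, a thymidine analogue built into DNA as it is copied, and no further treatment. After sorting, one cell per well was processed by scEdU-seq, which sequences the labelled fragments of single cells. The labels do not say how many knockout clones or separate cultures lie behind the plates, so the spread between plates may be technical.

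The genome is copied in a set order during S phase. Gene-rich, transcribed domains tend to replicate early and gene-poor domains late, and between them lie transition regions that forks cross from the early side. CFAP20 was first known as a protein of motile cilia, and the series title links it to RNA polymerase II arrested in the path of replisomes moving in the same direction as transcription.

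The files held 3023 wells, of which 2430 cells had at least 1000 autosomal molecules (labelled fragments) and were analysed, 1290 WT and 1140 CFAP20-KO. The plates held 1746074 to 4181841 fragments, and the autosomal molecules per plate ran from 751662 to 2478540 for WT and from 810875 to 1397632 for CFAP20-KO. The plates shared their well barcodes, 377 of 378 occurring in all 8 plates, as wells of separate plates do. CFAP20 itself had 63 molecules in WT and 39 in CFAP20-KO, and labelled DNA gives no check of the knockout. Cells were ordered along S phase by their own labelled bins, from 0 for the earliest to 1 for the latest, and the timing of a region is the mean position of the cells that supplied its molecules. The median gene had a timing of 0.291 ± 0.0339 in WT and 0.328 ± 0.0416 in CFAP20-KO (SD, n = 8 plates each). Shifts of genes between genotypes are therefore given after centring each genotype of a plate on its median gene. Shifts of bins are centred on the median bin of the same size instead, so shifts of genes and of bins are not on exactly the same scale.

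The genes differ widely in size and function. AGGF1 (chr5:77030404-77065234, + strand), an angiogenic factor, and ZBED3 (chr5:77072072-77087285, − strand), a zinc finger protein that binds axin in Wnt signalling, lie at one end. PDE8B (chr5:77086715-77428256, + strand, 342 kb), a phosphodiesterase that degrades cAMP, comes next. WDR41 (chr5:77430933-77620577, − strand, 190 kb), a partner of C9orf72 and SMCR8 in a complex at lysosomes, lies beside it. OTP (chr5:77628712-77638713, − strand) is a homeobox gene of hypothalamic neurons, and TBCA (chr5:77691166-77776339, − strand, 85.2 kb) encodes a chaperone of beta-tubulin. AP3B1 (chr5:78000522-78294698, 294 kb) encodes a subunit of an adaptor complex that sorts cargo to lysosome-related organelles. SCAMP1 (chr5:78360617-78480739, + strand, 120 kb), a membrane protein of recycling vesicles, and LHFPL2 (chr5:78485230-78648772, − strand, 164 kb), a membrane protein of the LHFPL family, lie at the other end.

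Promoters of genes that shifted are shown with that of SCAMP1, which lies beyond AP3B1 and did not, because early replication often goes with CG-rich promoters. Each run below is the 250 bases before an annotated start in RefSeq (GRCh38.p14), read 5′ to 3′ on the gene's strand, with every CG in capitals.
PDE8B (chr5:77210430-77210679, + strand): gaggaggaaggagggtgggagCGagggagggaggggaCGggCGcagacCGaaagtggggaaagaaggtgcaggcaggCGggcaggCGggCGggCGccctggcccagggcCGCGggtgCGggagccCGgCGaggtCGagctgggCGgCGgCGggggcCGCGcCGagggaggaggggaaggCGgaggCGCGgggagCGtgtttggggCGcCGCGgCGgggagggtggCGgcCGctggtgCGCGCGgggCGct
WDR41 (chr5:77492317-77492566, − strand): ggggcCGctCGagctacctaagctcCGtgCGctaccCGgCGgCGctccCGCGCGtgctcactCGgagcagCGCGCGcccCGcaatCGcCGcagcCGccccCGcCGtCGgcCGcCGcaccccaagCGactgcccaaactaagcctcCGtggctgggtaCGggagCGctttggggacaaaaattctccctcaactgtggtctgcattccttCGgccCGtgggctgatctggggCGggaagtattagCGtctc
TBCA (chr5:77776340-77776589, − strand): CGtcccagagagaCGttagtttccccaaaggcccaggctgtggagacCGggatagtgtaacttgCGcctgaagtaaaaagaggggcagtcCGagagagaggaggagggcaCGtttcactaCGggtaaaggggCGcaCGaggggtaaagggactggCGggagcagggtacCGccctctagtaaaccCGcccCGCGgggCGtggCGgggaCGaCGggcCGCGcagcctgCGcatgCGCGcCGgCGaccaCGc
SCAMP1 (chr5:78360367-78360616, + strand): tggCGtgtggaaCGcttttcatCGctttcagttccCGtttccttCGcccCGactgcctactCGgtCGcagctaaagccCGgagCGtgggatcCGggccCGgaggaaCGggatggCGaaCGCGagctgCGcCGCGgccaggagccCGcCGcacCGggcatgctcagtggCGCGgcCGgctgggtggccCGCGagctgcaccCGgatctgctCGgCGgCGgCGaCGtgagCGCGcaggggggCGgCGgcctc
The PDE8B window held 34 CGs, WDR41 31, TBCA 26 and SCAMP1 37, against a median of 11 over 34941 windows of the same length, of which 93.9% held at least 1 CG. As many CGs as in the PDE8B window stood in 6.83% of all windows, as many as in WDR41 in 10.8%, as many as in TBCA in 19.6% and as many as in SCAMP1 in 3.99%. The genes with large shifts and SCAMP1, whose shift was smaller than its SD over plates, each had at least 1 CG-rich window. The PDE8B window shown is the richest of that gene. The windows shown for PDE8B and WDR41 lie inside the gene bodies used for timing. A link between CG content and the shifts was not tested. PDE8B has 3 other annotated starts, whose windows held 8, 15 and 5 CGs. The 8 of 9 genes with a window had 11 windows in all, and LHFPL2 held 38, OTP 20, AGGF1 17 and ZBED3 13 CGs. AP3B1 was not matched.

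WDR41 showed the lowest shift of the 9 genes. Its timing in WT was 0.548 on the earliest plate, 0.655 at the median and 0.715 on the latest, and in CFAP20-KO 0.282, 0.339 and 0.421. Every CFAP20-KO plate was earlier than every WT plate. The centred shift was −0.33 ± 0.0692 (SD, n = 8 plates), with single plates between −0.43 and −0.19. Of 4610 genes tested, 2 had a lower shift.

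PDE8B followed WDR41 closely. Its timing in WT ran from 0.470 through a median of 0.592 to 0.643, and in CFAP20-KO from 0.222 through 0.292 to 0.327. The genotypes did not overlap. The centred shift was −0.32 ± 0.0853 (SD, n = 8 plates), from −0.44 on plate 2 to −0.17 on plate 1, and 3 genes had a lower shift. TBCA, on the far side of OTP, ran from 0.524 through 0.585 to 0.671 in WT and from 0.196 through 0.361 to 0.454 in CFAP20-KO, again with no overlap. Its centred shift was −0.26 ± 0.111 (SD, n = 8 plates), and 26 genes had a lower one.

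AP3B1 shifted less. It was earlier to begin with, at 0.275, 0.328 and 0.401 in WT (lowest, median and highest plate) and 0.199, 0.254 and 0.326 in CFAP20-KO. The plates of the genotypes overlapped, and CFAP20-KO was earlier on 7 of 8 plates before centring and on 8 after it. The centred shift was −0.10 ± 0.0460 (SD, n = 8 plates). A lower shift was found for 496 genes.

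SCAMP1 and LHFPL2, beyond AP3B1, were early in both genotypes. SCAMP1 ran from 0.164 through 0.222 to 0.320 in WT and from 0.130 through 0.269 to 0.347 in CFAP20-KO, and its centred shift was −0.02 ± 0.0542 (SD, n = 8 plates). LHFPL2 ran from 0.127 through 0.181 to 0.191 in WT and from 0.0830 through 0.225 to 0.417 in CFAP20-KO, with a centred shift of 0.01 ± 0.0646. Both genes were earlier in CFAP20-KO on 4 of 8 plates after centring, and their genotypes overlapped.

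AGGF1, ZBED3 and OTP held too few molecules for the fit, with at least 1 plate and genotype under 10. AGGF1 was early in both genotypes, at 0.273 ± 0.0638 in WT and 0.253 ± 0.0956 in CFAP20-KO (SD, n = 8 plates). ZBED3 stood at 0.334 ± 0.120 in WT and 0.215 ± 0.0796 in CFAP20-KO, with CFAP20-KO earlier on 6 of 8 plates. OTP stood at 0.658 ± 0.153 over the 6 WT plates with a molecule and at 0.392 ± 0.214 over 8 CFAP20-KO plates, from only 40 and 27 molecules. The ranges of these 3 genes overlapped between genotypes, and the spread of OTP between plates was the widest of the 9 genes.

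**Figure D1:**
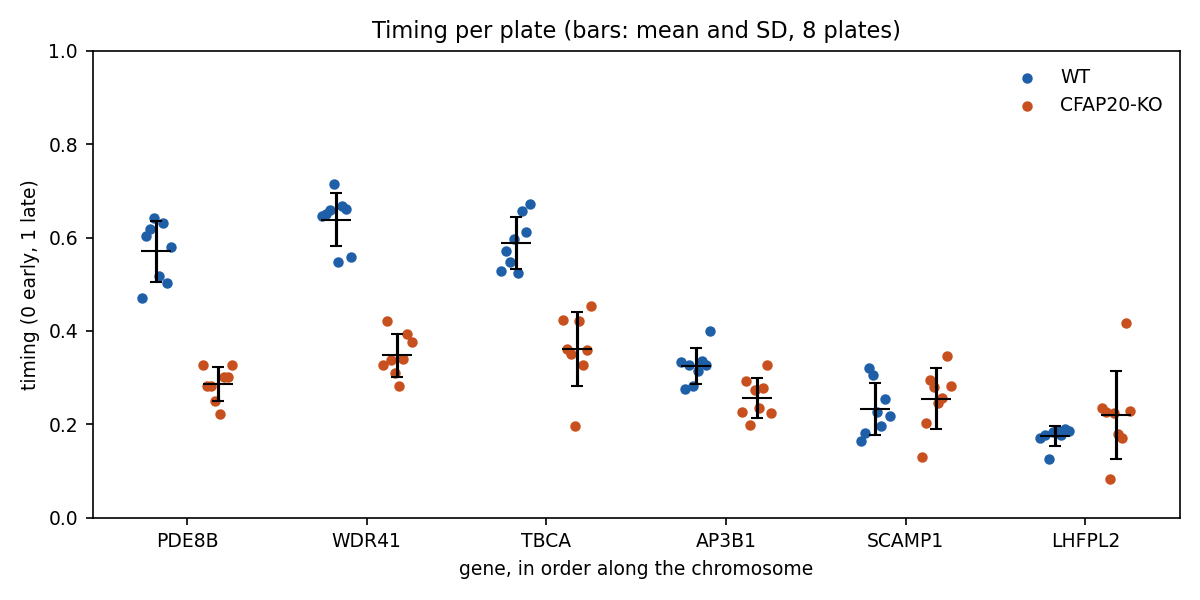
Timing (0 early, 1 late) of the 6 genes with enough molecules for the fit, per plate, for WT in blue and CFAP20-KO in orange, with the mean and SD over 8 plates in black. The WT and CFAP20-KO plates are separate for PDE8B, WDR41 and TBCA and overlap for AP3B1, SCAMP1 and LHFPL2.

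In the fit over all genes (limma, Benjamini-Hochberg adjusted p under 0.05), 4 of the 6 genes with enough molecules were called earlier in CFAP20-KO, namely PDE8B, WDR41, TBCA and AP3B1. The same fit called 13.7% of all genes tested earlier and 4.79% later. PDE8B, WDR41, TBCA and AP3B1 were earlier on all 8 plates after centring, as were 8.96% of genes. PDE8B, WDR41 and TBCA had every CFAP20-KO plate earlier than every WT plate, as did 1.58% of genes tested. Since the genes were picked by this contrast, these counts describe them and nothing more.

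The size of the shift depended on how weakly labelled cells were treated. Cells with at least 5000 molecules were ranked anew from 0 to 1. Shifts among them are thus on another scale than those above. Among the 914 cells with at least 5000 molecules, PDE8B stood at 0.515 ± 0.0352 in WT and 0.354 ± 0.0134 in CFAP20-KO, a shift of −0.18 (SE 0.0173). WDR41 stood at 0.564 ± 0.0401 and 0.382 ± 0.0348, a shift of −0.20 (SE 0.0170), and TBCA at 0.536 ± 0.0462 and 0.403 ± 0.0323, a shift of −0.15 (SE 0.0220). CFAP20-KO was earlier on 8 of 8 plates for each of these 3 genes. AP3B1 shifted by −0.06 (SE 0.0169) in those cells. With every cell given equal weight the shifts were −0.14 for PDE8B, −0.15 for WDR41, −0.12 for TBCA and −0.03 for AP3B1, and AP3B1 was then no longer called.

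In 50 kb bins, WT cells showed a late dome over the PDE8B and WDR41 bodies and on into TBCA that was nearly flat in CFAP20-KO. The 32 bins of the domain ran from 0.143 to 0.708 in WT, a range of 0.565, and from 0.200 to 0.396 in CFAP20-KO, a range of 0.196. From the AGGF1 side, WT timing was 0.335 ± 0.0663 in chr5:77050001-77100000 and 0.448 ± 0.0909 in the next bin. It peaked at 0.708 ± 0.0789 in chr5:77300001-77350000, inside PDE8B, where CFAP20-KO stood at 0.303 ± 0.114 (SD, n = 8 plates). Beyond WDR41 the WT values were still at 0.613 ± 0.0609 in chr5:77700001-77750000, inside TBCA. They then came down, to 0.474 ± 0.109 at chr5:77800001-77850000 and 0.316 ± 0.111 at chr5:78100001-78150000. They were lowest at 0.143 ± 0.0389 in chr5:78600001-78650000, within LHFPL2, where CFAP20-KO stood at 0.200 ± 0.135. That bin held too few molecules for the fit, with 67 in CFAP20-KO. The lowest bin of the domain with enough, chr5:78300001-78350000, stood at 0.146 ± 0.0414 in WT and 0.201 ± 0.113 in CFAP20-KO.

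**Figure D2:**
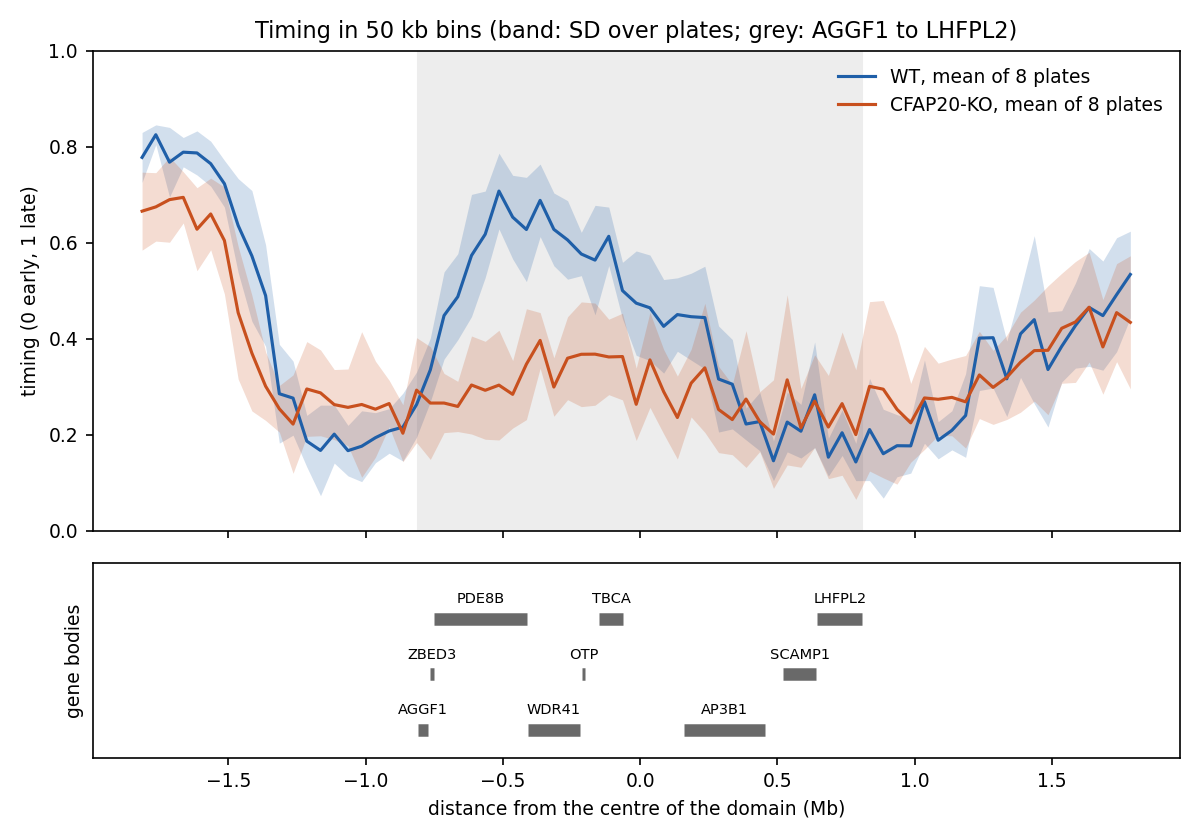
Timing (0 early, 1 late) of 50 kb bins against the distance in Mb from the centre of the domain, as the mean (line) and SD (band) of 8 plates for WT in blue and CFAP20-KO in orange, above the gene bodies. WT reaches 0.708 over PDE8B and comes down towards LHFPL2, while CFAP20-KO stays between 0.200 and 0.396 in the grey area. The 0.200 comes from a bin with too few molecules for the fit.

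Of the 32 bins, 20 had enough molecules for the fit, and 14 were called earlier in CFAP20-KO and 0 later (limma), where 9.12% of all bins tested were called earlier and 9.60% later. CFAP20-KO was earlier on all 8 plates in 12 of the 20, as it was in 4.83% of all tested bins. The called bins formed a run from chr5:77100001 to 77850000, 750 kb, in which 14 of 14 tested bins were called. The bin before it had a shift of −0.07 and the next tested bin after it, chr5:78050001-78100000, one of −0.11. Bins between 77850001 and 78050000 were below the minimum, with shifts from −0.22 to −0.11, so that the far edge was not resolved. With 100 kb bins the run reached from 77100001 to 78100000, and with 200 kb bins from 77000001 to 78200000. The 200 kb run began at the first bin examined, so its near edge was not resolved. The run held PDE8B from soon after its first start, all of WDR41, OTP and TBCA, and in wider bins the near portion of AP3B1, and 1 bin inside it, at WDR41's end and OTP, was below the minimum.

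The lowest shift of a bin was −0.41 ± 0.161 (SD, n = 8 plates), at chr5:77300001-77350000 in PDE8B, and 1 of 21416 tested bins had a lower one. All tested bins of like WT timing are given beside those of the domain. The domain was chosen for being earlier in CFAP20-KO, so its place among them restates that choice. Of the 2902 bins with a WT timing of 0.6 to 0.7, the median shift was 0.01 and the 5th percentile −0.20, while the 7 bins of the domain in that range lay between −0.37 and −0.25. Of the 1870 bins at 0.4 to 0.5 in WT the median shift was 0.02 and the 5th percentile −0.16, and the 4 bins of the domain had a median of −0.20. The bins over AP3B1's far end and beyond, at 0.1 to 0.3 in WT, had shifts of −0.01 and 0.05 beside medians of 0.04 and 0.06 for all bins.

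**Figure D3:**
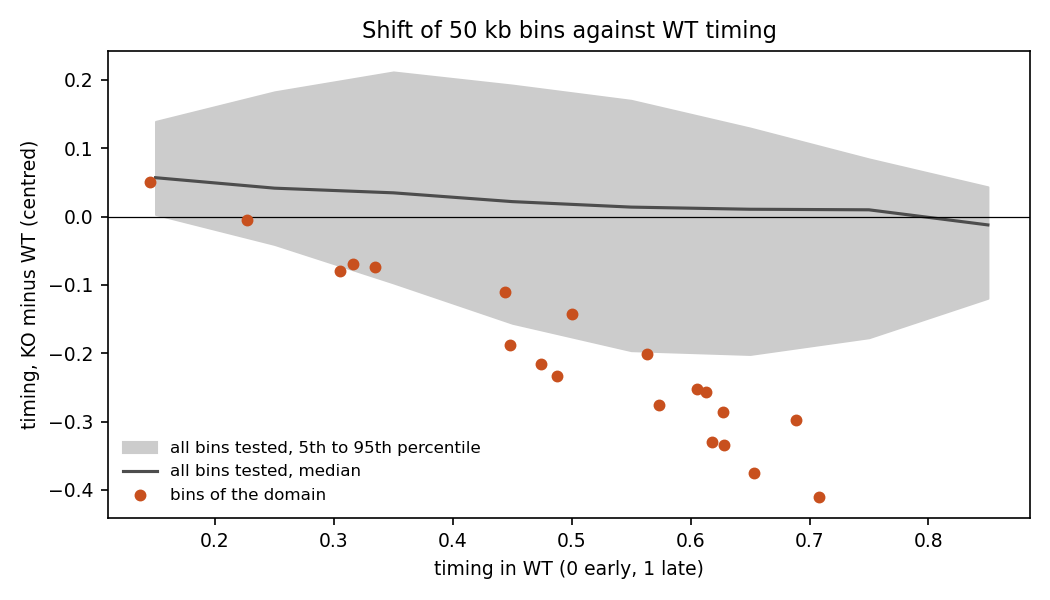
Centred shift in timing (CFAP20-KO minus WT) of 50 kb bins against their WT timing, with the median (line) and the 5th to 95th percentiles (grey) of all tested bins in steps of WT timing, and the 20 tested bins of the domain in orange. The 7 bins of the domain at 0.6 to 0.7 in WT lie below the 5th percentile of −0.20, and the lowest bin lies at −0.41. The domain was chosen by this contrast, so its low place restates the choice.

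Labelling through S phase showed the same bodies being copied in different cells. In cells with at least 5000 molecules, PDE8B and WDR41 (chr5:77086715-77620577) gave 4.32% ± 1.77, 34.3% ± 11.1, 53.5% ± 14.2 and 7.82% ± 6.94 of their WT molecules in parts 1, 2, 3 and 4 of the order cut into 4 equal parts (SD, n = 8 plates). In CFAP20-KO the shares were 21.9% ± 9.51, 63.0% ± 15.6, 10.6% ± 8.11 and 4.61% ± 1.48. Part 3 thus held most of the WT molecules and part 2 most of those of CFAP20-KO. In part 3 the plates ran from 37.7 to 76.4% in WT and from 3.85 to 21.8% in CFAP20-KO. How many other regions separate in this way was not counted.

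Relative to the genome's average in the same cells (1), labelling of PDE8B and WDR41 was highest in the fifth eighth of the order in WT, at 2.87 ± 0.461, and in the third eighth in CFAP20-KO, at 3.13 ± 0.697 (SD, n = 8 plates). In the third eighth WT stood at 1.17 ± 0.416, and in the fifth CFAP20-KO stood at 0.686 ± 0.597. The peak heights overlapped within their SDs, and the peaks lay 2 eighths apart in these cells. The order of all cells with at least 1000 molecules is another scale, and its eighths hold other cells. On it the peaks lay in the seventh eighth in WT, at 2.41 ± 0.594, and in the second in CFAP20-KO, at 2.98 ± 0.734. In cells with at least 5000 molecules, SCAMP1 and LHFPL2 peaked in the first eighth in WT, at 2.16 ± 0.729. In CFAP20-KO they peaked in the second, at 2.70 ± 0.903, and stood at 2.44 ± 1.53 in the first. These values of SCAMP1 and LHFPL2 overlapped within their SDs.

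**Figure D4:**
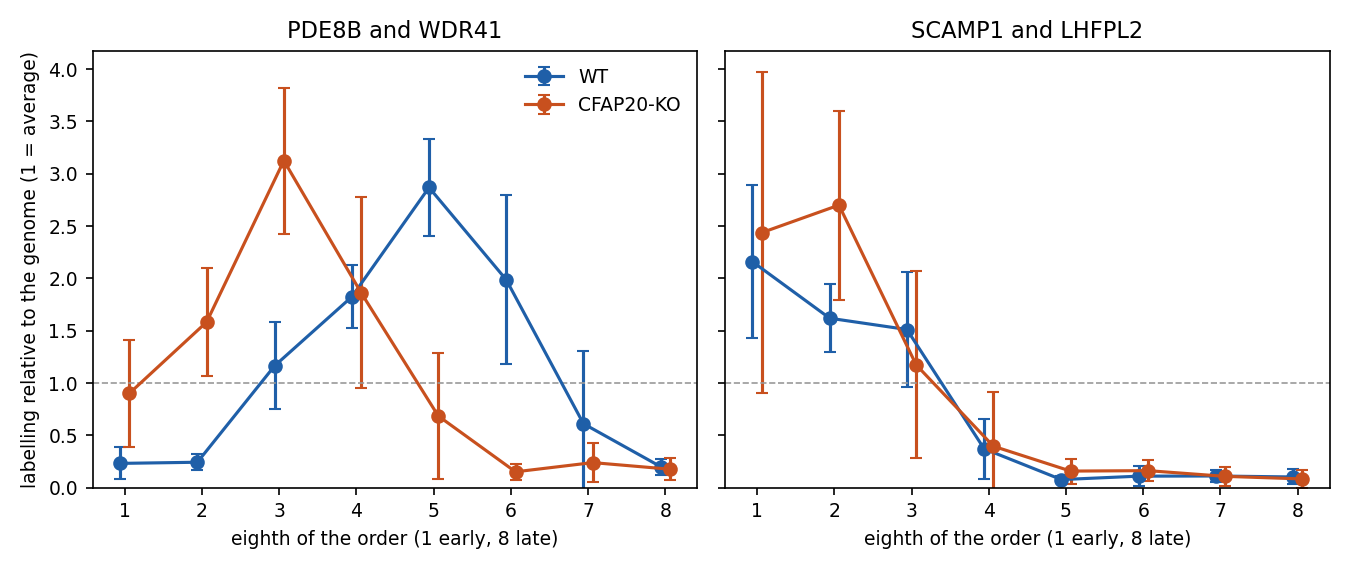
Labelling relative to the genome's average (1, dashed) in eighths of the order of cells (1 early, 8 late), for PDE8B with WDR41 and for SCAMP1 with LHFPL2, in cells with at least 5000 molecules; points and bars are the mean and SD of 8 plates. PDE8B with WDR41 peaks in the fifth eighth in WT (2.87) and in the third in CFAP20-KO (3.13), while SCAMP1 with LHFPL2 is highest in the first (WT, 2.16) and second (CFAP20-KO, 2.70).

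When the weakly labelled cells were kept, the order was drawn over more cells and the shares moved toward its ends. With all 2430 cells, WT held 20.2% ± 7.32 of the PDE8B and WDR41 molecules in part 1 and 47.7% ± 7.63 in part 4, and CFAP20-KO held 58.6% ± 8.19 and 9.22% ± 2.94 (SD, n = 8 plates). Cells with 1000 to 5000 molecules took the middle of that order. They supplied few molecules, since cells with at least 5000 gave 90.3% of the WT and 83.2% of the CFAP20-KO molecules of these genes. TBCA and AP3B1 together showed the same direction in the strongly labelled cells, with 29.1% ± 6.19 of WT molecules and 10.1% ± 6.80 of CFAP20-KO molecules in part 3.

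Many cells contributed to the profile. PDE8B and WDR41 had a molecule in 598 of 1290 WT cells and in 509 of 1140 CFAP20-KO cells, and the most in 1 cell was 62 and 43. The cell with the most molecules held 6.87 to 12.9% of a plate's WT molecules and 7.88 to 14.8% of its CFAP20-KO molecules. Molecules of 1 cell lie on the same labelled tracks, so plates and not cells were used as the sample.

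The number of molecules differed between genotypes by no more than the plates did among themselves. WDR41 had 0.474 ± 0.0567 molecules per kb, scaled to 1e+06 molecules per plate and genotype, in WT and 0.418 ± 0.0749 in CFAP20-KO, and PDE8B 0.451 ± 0.0617 and 0.411 ± 0.0625 (SD, n = 8 plates), which overlap. The log2 differences were −0.20 (SE 0.15) for WDR41, −0.15 (SE 0.12) for PDE8B, −0.16 (SE 0.21) for TBCA, −0.04 (SE 0.13) for AP3B1, 0.17 (SE 0.21) for SCAMP1 and −0.14 (SE 0.19) for LHFPL2. None of the 8 genes with enough molecules was called (limma voom), where 1.40% of 8868 genes were called in either direction. Leaving out single plates moved the log2 difference of AP3B1 between −0.08 and 0.02, above 0 only without plate 6. It moved TBCA between −0.27 (without plate 2) and −0.03 (without plate 5), SCAMP1 between 0.06 (plate 3) and 0.26 (plate 5), and LHFPL2 between −0.25 (plate 6) and −0.06 (plate 1). PDE8B ran from −0.18 to −0.07, the latter without plate 1, and WDR41 from −0.26 to −0.15. Scaling by TMM raised all of these values and turned AP3B1 to 0.04. Over the 32 bins the log2 ratio of shares ran from −0.62 to 0.37 with a median of −0.12, and bins above and below 0 stood side by side.

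**Figure D5:**
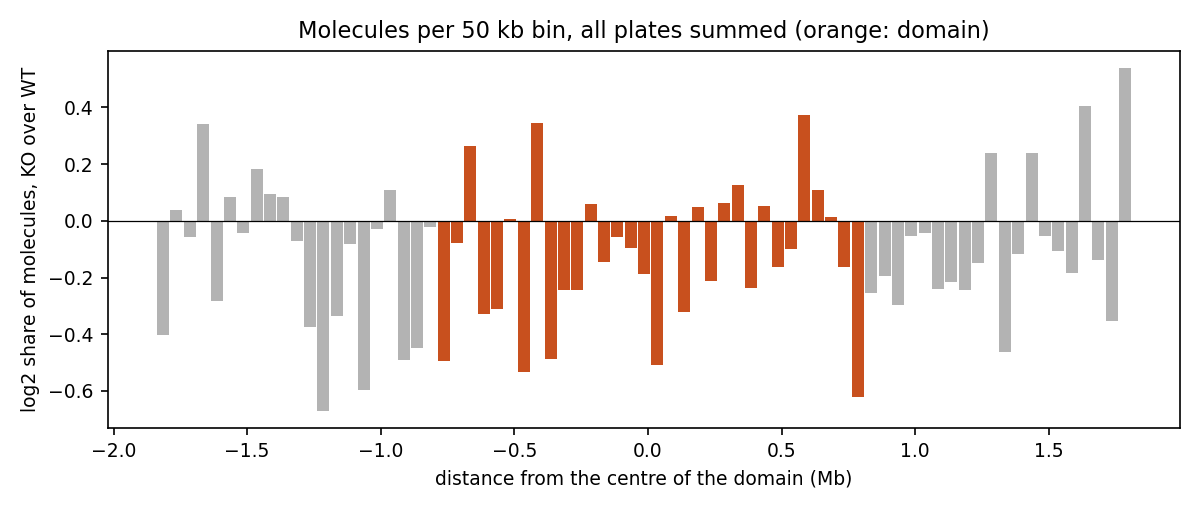
Log2 ratio of each 50 kb bin's share of molecules, CFAP20-KO over WT, with all plates summed, against the distance in Mb from the centre of the domain; bins of the domain are orange and others grey. Bins of the domain lie between −0.62 and 0.37 and stand on both sides of 0.

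With the genotypes pooled, timing rose and came down along the 9 genes. Pooled timing holds more WT than CFAP20-KO molecules, so it is not independent of the choice of the genes, and its differences are given with their spread over 8 plates and with no test. From ZBED3 to PDE8B timing became later by 0.158 ± 0.0981 (SD), on 8 of 8 plates. From PDE8B to WDR41 it became later again, by 0.0704 ± 0.0403 on 8 of 8 plates. From TBCA to AP3B1 it became earlier on all 8 plates, by −0.207 ± 0.0299. The pooled order was LHFPL2 (0.189 ± 0.0411), SCAMP1 (0.242 ± 0.0548), AGGF1 (0.266 ± 0.0741), AP3B1 (0.296 ± 0.0201), ZBED3 (0.305 ± 0.0881), PDE8B (0.463 ± 0.0469), OTP (0.466 ± 0.187), TBCA (0.503 ± 0.0443) and WDR41 (0.534 ± 0.0535). Neighbours in this order lay within their SDs of each other, except ZBED3 and PDE8B. AP3B1 to SCAMP1 (−0.0531 ± 0.0595) and SCAMP1 to LHFPL2 (−0.0534 ± 0.0711) differed by less than the SD over plates, as did AGGF1 to ZBED3, WDR41 to OTP and OTP to TBCA.

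Within gene bodies, timing changed along PDE8B and AP3B1 in opposite directions along the chromosome. Slopes, a measure added after the data were seen, are given per Mb towards higher coordinates, for pooled genotypes and likewise with no test. PDE8B became later by 0.636 ± 0.239 per Mb (SD, n = 8 plates), on 8 of 8 plates, which is the direction of its transcription. AP3B1 became earlier, with −0.769 ± 0.334 per Mb and 0 of 8 plates rising. WDR41, transcribed towards lower coordinates, had a slope of −0.405 ± 0.595, within its spread over plates, as were those of TBCA, SCAMP1 and LHFPL2. By genotype, the slope of PDE8B was 0.895 ± 0.350 in WT and 0.119 ± 0.290 in CFAP20-KO, and that of AP3B1 −1.09 ± 0.422 and −0.338 ± 0.571. The slope of WDR41 was −0.649 ± 0.523 in WT, rising on 1 of 8 plates, and 0.0491 ± 0.905 in CFAP20-KO. Of 3651 long genes with a known strand, 51.2% became later in the direction of transcription.

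The domain as a whole stood between neighbours that differed with distance. Pooled over genotypes, its timing of 0.388 ± 0.0302 was later than the 500 kb on the AGGF1 side (0.219 ± 0.0447) by 0.169 ± 0.0485 and than the 500 kb on the LHFPL2 side (0.256 ± 0.0316) by 0.132 ± 0.0323 (SD, n = 8 plates), each on 8 of 8 plates. Over 1 Mb the LHFPL2 side was still earlier, by 0.0422 ± 0.0198, but the AGGF1 side was later, at 0.449 ± 0.0315, both on 8 of 8 plates. In WT cells alone the domain differed from that 1 Mb flank by −0.0166. A late stretch at chr5:76000001-76350000, with WT bins from 0.723 to 0.825, lies largely in that wider flank. Bins there shifted too: 5 tested bins from 76150001 to 76400000 were called earlier in CFAP20-KO (limma), with shifts from −0.19 to −0.10. The run over PDE8B and WDR41 was therefore not the only one nearby. Between the runs, the bins at 76400001 to 76500000 were below the minimum, with shifts of −0.21 and −0.19. Bins at 76600001 to 76950000 had shifts from 0.05 to 0.11, and the remaining bins between the runs lay from −0.07 to 0.02. None of the bins between the runs was called, and many were below the minimum.

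Labelled tracks, measured as the distance at which the excess of pairs of molecules in 1 cell dropped to 50% of its value at short distance, were 16.4 ± 1.28 kb wide inside the domain and 15.9 ± 0.229 kb over all autosomes (SD, n = 8 plates). They were wider in the domain on 4 of 8 plates and the difference of 0.538 ± 1.17 kb was within the spread (exact permutation p = 0.266). Plate 8, with the fewest pairs (7041), had 19.2 kb. Without plate 8 the difference was 0.166 kb.

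Among the genes beyond the ends, 3 of 9 tested were called earlier and 0 later, where 13.7% of all genes tested were called earlier. On the AGGF1 side, 2 of 6 genes had enough molecules. IQGAP2, a scaffold protein, was called earlier with a shift of −0.07 (SE 0.0205, limma adjusted p = 0.0186), while S100Z stood at 0.01. Shifts of bins differed along IQGAP2 (chr5:76403285-76708132). They were −0.21 and −0.19 at 76400001 to 76500000, but 0.10 and 0.11 at 76600001 to 76700000. None of these bins was called, and most were below the minimum. On the LHFPL2 side 2 of 7 tested genes were called earlier and 0 later. These were CMYA5, a muscle protein, at −0.10 (SE 0.0285, limma adjusted p = 0.0153) and THBS4, a matrix thrombospondin, at −0.18 (SE 0.0502, limma adjusted p = 0.0121). ARSB, the lysosomal sulfatase nearest to LHFPL2, stood at 0.00 with timings of 0.207 ± 0.0324 in WT and 0.244 ± 0.0608 in CFAP20-KO. The median over the 7 was −0.06, against a median near 0 (−0.003) for all genes tested. With every cell given equal weight 0 of the flanking genes were called, and without plate 6 only 1 was. S100Z and ARSB, early in both genotypes, lie between the domain and the called genes on their sides.

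Paralogs and complex partners elsewhere mostly held too few molecules, with 5 of 24 tested. LHFPL3, a very long relative of LHFPL2 on chromosome 7, was called earlier, at 0.563 ± 0.0601 in WT and 0.460 ± 0.0628 in CFAP20-KO (shift −0.14, SE 0.0283, limma adjusted p = 0.00102), but was not called with every cell given equal weight. PDE8A, the other gene of the PDE8 family, was early in both genotypes, at 0.150 ± 0.0244 and 0.205 ± 0.0723, with a shift of 0.02. TBCD stood at 0.02, LHFPL6 at 0.05 and AP3S1, on chromosome 5 but far from the domain, at −0.10, and none of these was called. C9orf72, the partner of WDR41, was late in both genotypes, at 0.846 ± 0.0654 and 0.804 ± 0.0818 from 190 molecules, and was not tested. AP3B2, the neuronal counterpart of AP3B1, was also below the minimum and stood at 0.448 ± 0.0855 in WT and 0.252 ± 0.0640 in CFAP20-KO, earlier on 8 of 8 plates before centring.

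The genes outside chromosome 5 with the most similar timings to WDR41, by Euclidean distance over the 16 centred timings among 4141 genes of at least 50 kb, were NKD1 (0.264), ALK (0.271), GALNT18 (0.280), PGBD5 (0.280) and STOX2 (0.291). PDE8B lay at 0.332 and TBCA at 0.338 from WDR41 on the same measure. GALNT18, a glycosyltransferase gene, stood at 0.656 ± 0.0644 in WT and 0.379 ± 0.0650 in CFAP20-KO, and NKD1, a Wnt inhibitor gene, at 0.587 ± 0.0559 and 0.369 ± 0.0737 (SD, n = 8 plates). The 5 genes lie on 5 chromosomes and were picked by their likeness, so their shifts of −0.31 to −0.23 restate the choice.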

How the data were processed

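Fragments of 8 plates were measured by scEdU-seq, 1 file per plate, and each row of the deposited files gives a well, chromosome, position, signed length and genotype label, with no count or scaled value. The build, GRCh38, comes from the submitters' processing notes; for the aligner, the filters and duplicate removal, the tools are not stated in what was used here. Between 0.770 and 0.936% of rows shared well, position and length with another, and all rows were kept. Genotype was read from the column of the files, since the sample labels name one genotype for whole plates.

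Cells with at least 1000 autosomal molecules were ranked on the first axis (18.8% of inertia) of a correspondence analysis of 5422 bins of 500 kb. Timing was averaged over molecules per plate and genotype, and regions with at least 10 molecules in each were tested with limma 3.58.1 in R 4.3.3 (with voom for molecules, at a mean of at least 10), without a block, at a Benjamini-Hochberg adjusted p under 0.05. Track width was tested by exact sign flips over plates. The same tests of pooled timing (neighbours, flanks, slopes) were run, but pooled timing leans towards WT and is not independent of the choice of genes, so they are not reported as tests. The procedures were tested on simulated data. Plates pair the genotypes by their titles; deviations of the same plate correlated weakly (mean r 0.00672 over genes, from −0.0440 to 0.0803). Depth is given per plate; the precision stated is the SD over plates. Named were the 9 genes, the flanking and partner lists and the 5 genes most like WDR41; members, lists and rules were chosen with earlier results of these data known. Gene bodies, starts and strands come from RefSeq (GRCh38.p14). The files do not state whether positions count from 0 or 1, which moves regions by 1 base at most. Chromosomes X and Y were not used here. Alternatives tried were the molecule minimums, equal weight per cell, other orders of cells, bin sizes, TMM, a plate block and leaving out plates.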

Additional observations from a re-analysis of the deposited data

Results flagged for a closer look

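LHFPL2 gave 2 of 29 groups of plates in which the highest or lowest plate stood apart from the rest by Dixon's criterion; chance alone would mark about 1 in 20. In WT, plate 3 had a timing of 0.127 for LHFPL2, below the other plates. In CFAP20-KO, plate 7 had 0.417 from 29 molecules, the fewest of any plate for LHFPL2, above the other plates. The values of LHFPL2 enter its shift of 0.01, which was not called and was −0.01 without plate 7.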

How the results depend on the processing

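The shifts of PDE8B, WDR41 and TBCA kept their direction and their call under every alternative run for genes, and leaving out single plates moved them between −0.34 and −0.30, −0.35 and −0.31, and −0.28 and −0.24. AP3B1 lost its call with equal weight per cell (−0.03). The genes were chosen by this contrast, and the alternatives reused the same plates. Calls that held, here or with a plate block, therefore describe the genes and support nothing. Over all genes 853 were called, with equal weight 153, and over 50 kb bins 4011 were called, with equal weight 193, with at least 5000 molecules per cell 2481 and with at least 20 molecules per library, which leaves fewer bins, 223. Flanking genes called went from 3 to 0 and partner genes from 1 to 0 with equal weight, and to 1 to 4 (1 without plate 6) and 1 to 2 (2 without plate 7 or 8) without single plates. Calls on molecules went from 124 to between 79 and 124 without single plates (79 without plate 2 or 7, 80 without plate 1 or 5). With the plate as a replicate block, 811 genes, 3992 bins and 162 genes on molecules were called, and no call of PDE8B, WDR41, TBCA or AP3B1 changed. Exact sign-flip tests over plates passed 3 pairs of neighbours, and 5 in WT cells alone. They are not read as tests, since pooled and WT timings are not independent of the choice of genes. The domain differed from the 1 Mb flank on the AGGF1 side by −0.0609 with genotypes pooled and by −0.0166 in WT cells alone. With flanks of 500 kb the pooled difference turned to 0.169. With at least 5000 molecules per cell, the WT share of PDE8B and WDR41 molecules was 4.32% in part 1 and 7.82% in part 4 of the order, and that of CFAP20-KO 21.9% and 4.61%. The thinned order, ranks within genotype, the narrower set of cells for shares, the slopes and leaving out plates for track width were added after the data were seen. The cause of these changes was not tested. AGGF1, ZBED3, OTP and 12 of 32 bins were too thinly covered for the fit.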
